A study of Mus musculus with 4 samples.

Results

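The Forkhead and Sox genes encode 2 large families of transcription factors, and they were examined here for Eya1 binding near their transcription start sites (TSSs) in the embryonic mouse kidney. Members were the protein-coding genes of the GENCODE M21 annotation of mm10 whose symbols are Fox followed by a letter from a to s and a digit, or Sox followed by digits only. This gave 63 genes of 21911, of which 44 were Forkhead and 19 were Sox genes. Eya1 was profiled by chromatin immunoprecipitation and sequencing (ChIP-seq) in whole kidneys of E13.5 embryos, each assay pooling 80 kidneys. All samples came from embryos in which HA and FLAG tags had been knocked into the endogenous Eya1 gene, and the tagged protein was captured with anti-FLAG beads. There were 2 Eya1 ChIP samples (replicates 1 and 2), 1 input sample and 1 IgG sample, and a peak list was used for each Eya1 replicate. Input and IgG were not analysed here, so no control peak list stands beside the Eya1 values. The lists give only the position of each peak, so neither the depth nor the strength of binding behind a peak is known, and a peak cannot be assigned to a cell type of the kidney.

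Eya1 is a transcriptional cofactor and phosphatase with no DNA-binding domain of its own, and in the kidney it is best known for its role in nephron progenitors. Forkhead proteins bind DNA through a winged-helix domain and Sox proteins through an HMG box that bends the double helix. In the developing kidney, Foxd1 marks the stromal progenitors, Foxc1 and Foxc2 act in the early mesenchyme and in podocytes, Sox8 and Sox9 act in the ureteric bud tips, and Sox7, Sox17 and Sox18 belong to the endothelium.

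Of the 63 genes, 19 (30.2%, 95% exact interval 19.2 to 43.0) had a peak of either replicate within 1 kb of an annotated TSS, called a promoter peak here. Among all protein-coding genes the share was 23.5%. Replicate 1 placed a promoter peak at 15 members (23.8%) against 20.2% of all genes, and replicate 2 at 14 members (22.2%) against 14.7%. The mean over the replicates was 23% ± 1.12 (SD, n = 2). In 10 members (15.9%, interval 7.88 to 27.3) overlapping peaks of both replicates lay there, against 11.4% of all genes. With the midpoint of the merged interval in place of its edge required within 1 kb, 5 members (7.94%; Foxd1, Foxn3, Foxp1, Foxp4 and Sox11) and 11.2% of all genes had such peaks, so the order of these shares turned. The intervals cover counting error over genes only. Each of the 4 background shares lay inside the members' interval for the same list, so the families together were not distinguishable from all protein-coding genes by these counts.

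The 10 members with a promoter peak in both replicates were Foxc1, Foxc2, Foxd1, Foxn3, Foxo1, Foxp1, Foxp4, Sox4, Sox11 and Sox12. Replicate 1 alone placed a peak at Foxk1, Foxk2, Foxm1, Foxo3 and Foxp3. Replicate 2 alone placed a peak at Foxj2, Foxj3, Foxn2 and Sox13. The other 44 members had none.

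Of the replicate 2 promoter peaks, those at Foxj3, Foxn2, Foxn3 and Foxp1 fell wholly outside the exons of the member. The 3 shortest of these are printed here because each shows a whole interval of the list and its CpG content. They are read from the mm10 assembly on the strand of the gene, with each CpG in capitals. The Foxp1 peak (chr6:99522052-99522280, minus strand) held 18 CpGs in 229 bp, the Foxn3 peak (chr12:99392566-99392687, minus strand) 12 in 122 bp and the Foxj3 peak (chr4:119540073-119540315, plus strand) 34 in 243 bp.
Foxp1: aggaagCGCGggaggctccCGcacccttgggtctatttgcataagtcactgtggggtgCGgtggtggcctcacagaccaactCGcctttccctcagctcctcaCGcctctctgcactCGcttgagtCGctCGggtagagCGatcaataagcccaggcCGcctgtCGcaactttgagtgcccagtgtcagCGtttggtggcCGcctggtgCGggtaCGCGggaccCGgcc
Foxn3: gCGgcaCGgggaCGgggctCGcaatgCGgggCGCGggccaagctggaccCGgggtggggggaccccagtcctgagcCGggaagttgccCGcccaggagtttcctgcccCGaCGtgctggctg
Foxj3: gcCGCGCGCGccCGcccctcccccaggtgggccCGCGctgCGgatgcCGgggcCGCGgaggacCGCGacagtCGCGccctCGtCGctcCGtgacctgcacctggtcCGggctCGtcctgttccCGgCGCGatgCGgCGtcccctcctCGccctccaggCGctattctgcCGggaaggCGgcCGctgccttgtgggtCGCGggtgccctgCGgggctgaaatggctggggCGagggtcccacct
The observed over expected CpG ratio is 1 when CpGs are as frequent as a random order of the same bases would give. It was 0.774 in the Foxp1 peak, 0.708 in the Foxn3 peak and 0.946 in the Foxj3 peak. None of the 3 intervals touched an annotated exon.

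**Figure D1:**
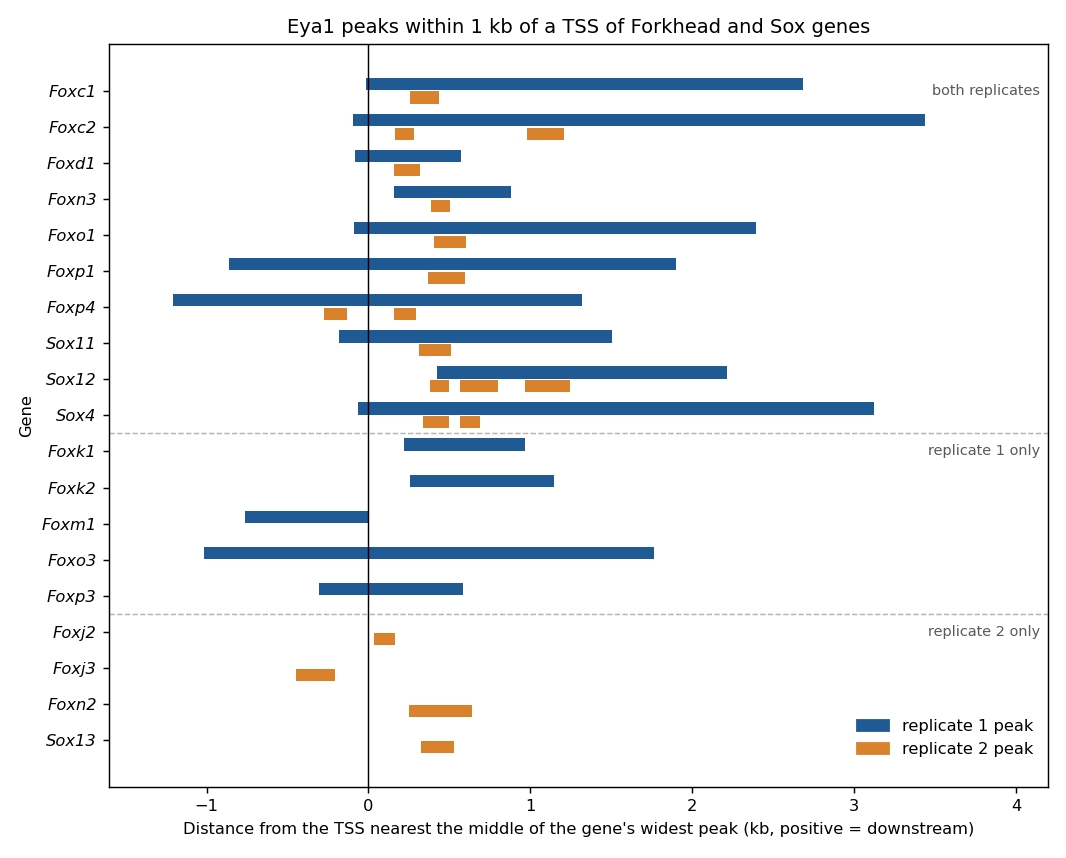
Extent of every promoter peak of the 19 members along the gene, in kb from the TSS nearest the middle of the gene's widest peak (positive values are downstream), with replicate 1 in blue and replicate 2 in orange. Replicate 1 peaks are wide and most run downstream from the TSS, while the narrow replicate 2 peaks sit mostly just downstream of it.

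Among Forkhead genes, 15 of 44 (34.1%, interval 20.5 to 49.9) had a promoter peak, 12 in replicate 1 (27.3%), 10 in replicate 2 (22.7%) and 7 in both (15.9%). The shares of all protein-coding genes, 23.5%, 20.2%, 14.7% and 11.4% in the same order, lay inside the Forkhead intervals. The FoxC pair was complete, with peaks of both replicates at Foxc1 and at Foxc2. The FoxK pair, Foxk1 and Foxk2, which repress autophagy genes and promote glycolysis, was complete in replicate 1 and absent from replicate 2. In the FoxP group of transcriptional repressors, Foxp1 and Foxp4 had peaks in both replicates, Foxp3, the lineage factor of regulatory T cells, had one in replicate 1, and Foxp2 had none. Of the FoxO factors, which are targets of insulin signalling, Foxo1 had peaks in both replicates and Foxo3 in replicate 1, while Foxo4 and Foxo6 had none. In the FoxN group, Foxn3 had peaks in both replicates and Foxn2 in replicate 2, and Foxn1, the factor of thymic epithelium, and Foxn4 had none. Foxj2 and Foxj3 had a peak in replicate 2, and Foxj1, the factor of motile cilia, had none. Foxm1, which drives the mitotic genes of dividing cells, had a peak in replicate 1. Foxd1 was the only one of 4 FoxD genes with a promoter peak. The FoxA, FoxB, FoxE, FoxF, FoxG, FoxH, FoxI, FoxL, FoxQ, FoxR and FoxS genes had none.

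Among Sox genes, 4 of 19 (21.1%, interval 6.05 to 45.6) had a promoter peak, 3 in replicate 1 (15.8%), 4 in replicate 2 (21.1%) and 3 in both (15.8%). The shares of all protein-coding genes, 23.5%, 20.2%, 14.7% and 11.4% in the same order, lay inside the Sox intervals. The 3 in both were the whole SoxC group, Sox4, Sox11 and Sox12, transcriptional activators of progenitor cells that are expressed in the nephrogenic mesenchyme. The only other Sox gene with a peak was Sox13 of the SoxD group, in replicate 2, and Sox5 and Sox6 of the same group had none. No promoter peak was found at the pluripotency and neural genes of group B (Sox1, Sox2, Sox3, Sox14, Sox21), at Sox8, Sox9 and Sox10 of group E, at the endothelial genes of group F (Sox7, Sox17, Sox18), or at Sox15 and Sox30. The intervals of the Sox and the Forkhead shares overlapped widely, and the difference between the families was not tested.

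A list of 20 members known from textbook knowledge to be expressed in the kidney held 10 Forkhead and 10 Sox genes. Of these, 11 (55%, interval 31.5 to 76.9) had a promoter peak, 10 in replicate 1 (50%), 9 in replicate 2 (45%) and 8 in both (40%). Of the 43 other members, 8 (18.6%, interval 8.39 to 33.4) had one, with 5 in each replicate (11.6%) and 2 in both (4.65%). Foxc1, Foxc2, Foxd1, Foxo1, Foxp1, Sox4, Sox11 and Sox12 of the list had peaks in both replicates, Foxm1 and Foxo3 in replicate 1 and Sox13 in replicate 2. The 9 members of the list without a peak were Foxd2, Foxf1, Foxi1 (the factor of intercalated cells), Sox6, Sox7, Sox8, Sox9, Sox17 and Sox18. The list was written with results of these data known, so the difference between its 2 sides is a description. By family, 7 of the 10 Forkhead and 4 of the 10 Sox genes of the list had a peak.

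**Figure D2:**
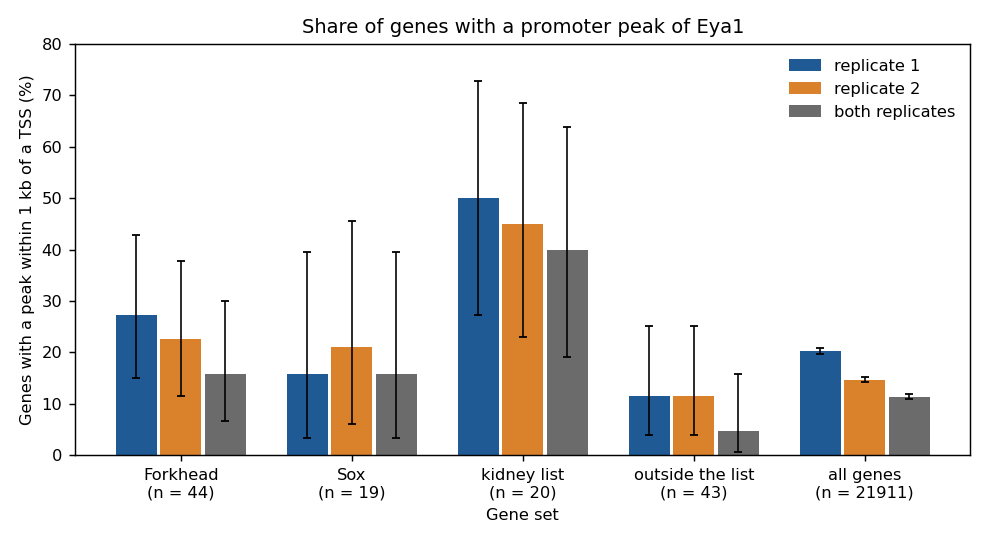
Percentage of genes with a peak within 1 kb of a TSS in replicate 1 (blue), replicate 2 (orange) and both replicates (grey) for 5 gene sets, with 95% exact intervals over genes as error bars. The kidney list stands at 50%, 45% and 40%, the other members at 11.6%, 11.6% and 4.65%, and all protein-coding genes at 20.2%, 14.7% and 11.4%.

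Promoters of these families are rich in CpG, and Eya1 peaks were more frequent at CpG-rich promoters across the genome, so the shares were next set beside those of genes with similar CpG content. The CpG observed over expected ratio in 500 bp to either side of the gene 5′ end had a median of 0.769 over the 63 members and 0.552 over all protein-coding genes. Genes were sorted by this ratio into 10 classes of equal size. The share of other protein-coding genes with a promoter peak rose in every step, from 1.46% in class 1 to 62.5% in class 10. Weighting these shares by the members' classes gave 36.5% for other genes of the same CpG content, equal to 23 genes out of 63, against the 19 observed (30.2%). For the peaks in both replicates the weighted share was 18.2% against 15.9%. The members' share was thus above that of all protein-coding genes and below that of other genes of like CpG content. The distance below differed between the lists. In replicate 1 the members' share was 23.8% against a weighted 31.7%, and in replicate 2 the values were close, 22.2% against 23.2%. The observed interval of 19.2 to 43.0% included the weighted share of 36.5%, but not the 44.1% that a CpG window of 1 kb to either side gave.

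For Forkhead genes the CpG-weighted share of other genes was 35.2%, equal to 15.5 genes, and 15 had a peak. For Sox genes it was 39.6%, equal to 7.52 genes, and 4 had a peak. The Sox interval of 6.05 to 45.6% included this share. By list, the Sox count was 3 against 6.53 genes in replicate 1, 4 against 4.75 in replicate 2 and 3 against 3.73 in both. The Forkhead count was 12 against 13.4, 10 against 9.85 and 7 against 7.74 in the same order. For the kidney list the weighted share was 45%, equal to 8.99 genes, against 11 with a peak. In both replicates it was 22.9%, equal to 4.58 genes, against 8 observed. For the 43 other members the weighted share was 32.6%, equal to 14 genes, against 8, and 16% in both replicates, equal to 6.89 genes, against 2. Both sides of the list were drawn up with results of these data known, so these are descriptions.

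**Figure D3:**
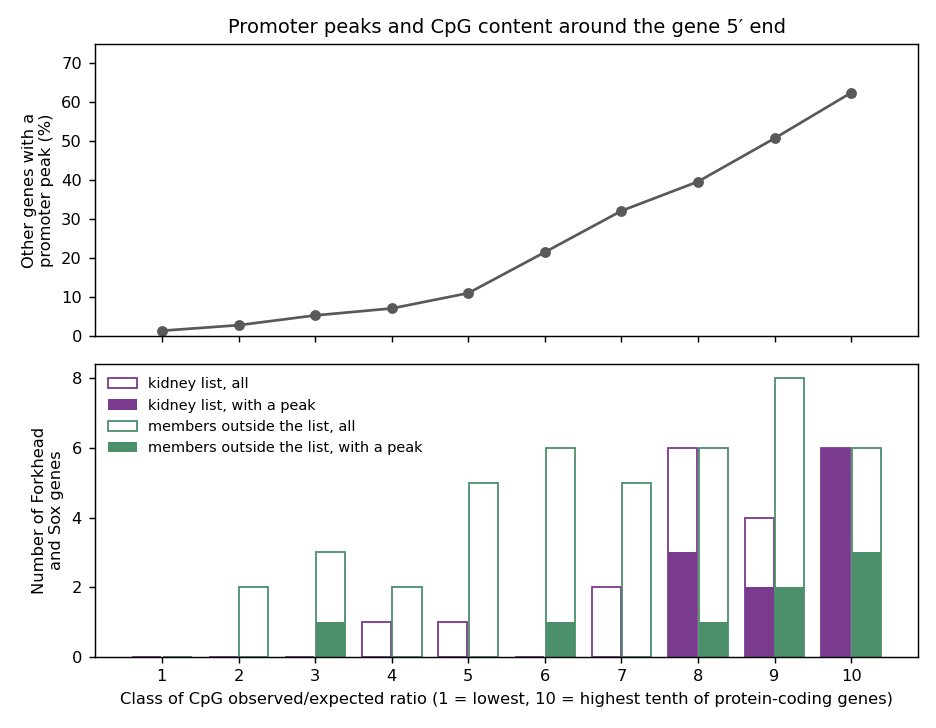
Upper panel, percentage of protein-coding genes outside the families with a promoter peak in each of 10 classes of the CpG observed/expected ratio around the gene 5′ end. Lower panel, number of Forkhead and Sox genes in each class (outlines) and of those with a peak (filled), for the kidney list (purple) and the other members (green). Of 36 members in classes 8 to 10, 17 had a peak, and of 27 in the lower classes, 2.

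The members with a peak fell almost entirely in the CpG-rich classes. In classes 8 to 10 (ratio of at least 0.733), 17 of 36 members (47.2%) had a promoter peak, against 51% of other genes in these classes. In classes 1 to 7, 2 of 27 members (7.41%) had one, against 11.7%. Those 2 were Foxj3 (class 3) and Foxp3 (class 6). The Foxj3 peak did not lie at the gene 5′ end where the ratio was measured but 3190 bp downstream, near an internal TSS. The same limit holds for Foxn3 (class 9), counted among the CpG-rich members. Its peaks had midpoints 171030 and 170955 bp downstream of the gene 5′ end. In classes 8 to 10, 11 of the 16 members on the kidney list had a peak, and 6 of the 20 others. In class 10 all 6 members of the list (Foxc1, Foxc2, Foxo1, Foxp1, Sox11 and Sox12) had one, and 3 of the 6 others (Foxk1, Foxk2 and Foxn2), while Foxo6, Sox2 and Sox30 did not.

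High CpG content did not by itself go with a peak, and 19 members of classes 8 to 10 had none. The promoters of 5 Sox genes show the range. Each line gives the 120 bases upstream of the gene 5′ end in mm10 on the strand of the gene, with CpGs in capitals. Sox4 (chr13:28953714-28953833, minus strand) and Sox11 (chr12:27342575-27342694, minus strand) had peaks in both replicates. Their replicate 1 peaks, which cover the TSS, reached into these bases, and their replicate 2 peaks lay downstream of them. Sox2 (chr3:34650285-34650404, plus strand), Sox9 (chr11:112782104-112782223, plus strand) and Sox10 (chr15:79165241-79165360, minus strand) had none.
Sox4: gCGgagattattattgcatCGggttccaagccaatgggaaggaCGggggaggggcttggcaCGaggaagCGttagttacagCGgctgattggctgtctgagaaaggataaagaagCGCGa
Sox11: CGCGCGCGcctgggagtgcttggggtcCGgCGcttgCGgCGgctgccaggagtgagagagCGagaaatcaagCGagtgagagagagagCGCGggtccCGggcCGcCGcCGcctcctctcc
Sox2: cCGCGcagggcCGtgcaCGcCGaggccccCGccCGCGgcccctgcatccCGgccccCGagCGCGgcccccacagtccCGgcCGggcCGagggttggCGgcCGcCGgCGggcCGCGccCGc
Sox9: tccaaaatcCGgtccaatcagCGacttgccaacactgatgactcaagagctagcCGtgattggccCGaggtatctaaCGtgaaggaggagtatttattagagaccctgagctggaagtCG
Sox10: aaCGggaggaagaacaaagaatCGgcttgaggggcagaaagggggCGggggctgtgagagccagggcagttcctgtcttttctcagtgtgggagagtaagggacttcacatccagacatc
These stretches held 8 CpGs upstream of Sox4, 16 upstream of Sox11, 22 upstream of Sox2, 6 upstream of Sox9 and 3 upstream of Sox10. Over the full window of 500 bp to either side, the ratio was 0.796 at Sox4, 0.908 at Sox11, 0.959 at Sox2, 0.804 at Sox9 and 0.166 at Sox10. The ratio over this window was thus higher at Sox2, which had no peak, than at Sox4 and Sox11, while in CpGs per 100 bp Sox2 (9.69) lay between Sox4 (5.59) and Sox11 (9.99). The nearest peak of either replicate was 569.14 kb from the Sox2 TSS and 967.61 kb from the Sox9 TSS.

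The midpoints of the members' peaks lay downstream of the TSS with few exceptions. In replicate 1, 14 of 15 promoter peaks (93.3%) had their midpoint downstream of the nearest TSS of the gene, against 69.9% of all 4615 pairs of a protein-coding gene and a promoter peak. In replicate 2 it was 18 of 19 (94.7%) against 72.6% of 3941 pairs. The median midpoint was 594 bp downstream in replicate 1 and 427 bp in replicate 2, against 125 and 129 bp over all genes. Of the 15 replicate 1 peaks, 11 (73.3%) covered a TSS of the gene, against 88.7% of all. Of the 19 replicate 2 peaks, 1 (5.26%), at Foxp4, covered a TSS, against 29.1%. Of these 19 peaks, 10 were at single-exon genes. For single-exon genes outside the families, 79.3% of the replicate 1 pairs and 8.99% of the 89 replicate 2 pairs covered a TSS. Their midpoints lay downstream in 72.1% and 68.5%, near the shares of all genes. The low share of replicate 2 peaks over a TSS is thus not particular to the members. Positions were taken from the nearest TSS, and a gene with more TSSs has more places for a peak to be near. Genes with a promoter peak had a median of 5 TSS positions, and members with one had 3. The part of this in the differences was not tested. These positions were examined after the values had been seen and were not tested.

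Replicate 1 peaks of the members were wide, and replicate 2 peaks narrow, as in the lists as a whole. The 15 replicate 1 peaks ran from 650 to 3529 bp with a median of 1792 bp, and 9 of them were wider than 1099 bp, the median of all promoter peaks in that list. The 19 replicate 2 peaks ran from 117 to 387 bp with a median of 179 bp, against 199 bp. Widths of the lists therefore cannot be read against each other as binding strength. Whole lists had median widths of 1069 bp (replicate 1) and 188 bp (replicate 2), and merging them gave 5493 intervals, of which 2424 were covered by both.

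The widest peak of a member was over Foxc2, a single-exon gene. Its replicate 1 peak, chr8:121116078-121119606, was 3529 bp wide and covered all of the 2725 bp of the gene. Replicate 2 had 3 peaks inside that interval, 117 bp at chr8:121116338-121116454, 229 bp at chr8:121117148-121117376 and 144 bp at chr8:121118073-121118216, all of them in the exon. Over Foxc1, also a single exon, replicate 1 had 2 peaks, 2700 bp at chr13:31806619-31809318 from the TSS and 1877 bp at chr13:31810428-31812304 near the gene's 3′ end, which together covered 4563 bp (78.1%) of the gene. Replicate 2 had 179 bp at chr13:31806888-31807066 and 120 bp at chr13:31807865-31807984, both within the first of these intervals.

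Foxc1 and Foxc2 are each the end or the middle gene of a small cluster of Forkhead genes, and in both clusters only the FoxC gene was bound. On chromosome 13, Foxq1 and Foxf2 start 250 and 181 kb upstream of Foxc1, and neither replicate had a peak between Foxq1 and Foxc1. On chromosome 8, Foxf1 starts 31.8 kb upstream and Foxl1 11.8 kb downstream of Foxc2, and the nearest peaks to Foxf1 (31.69 kb) and to Foxl1 (8.33 kb) were those over Foxc2. Foxf1 acts in visceral mesoderm and Foxl1 in gut mesenchyme. The CpG ratio was 0.942 at Foxc1 and 0.993 at Foxc2, against 0.85 at Foxf1, 0.854 at Foxf2, 0.77 at Foxl1 and 0.243 at Foxq1.

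**Figure D4:**
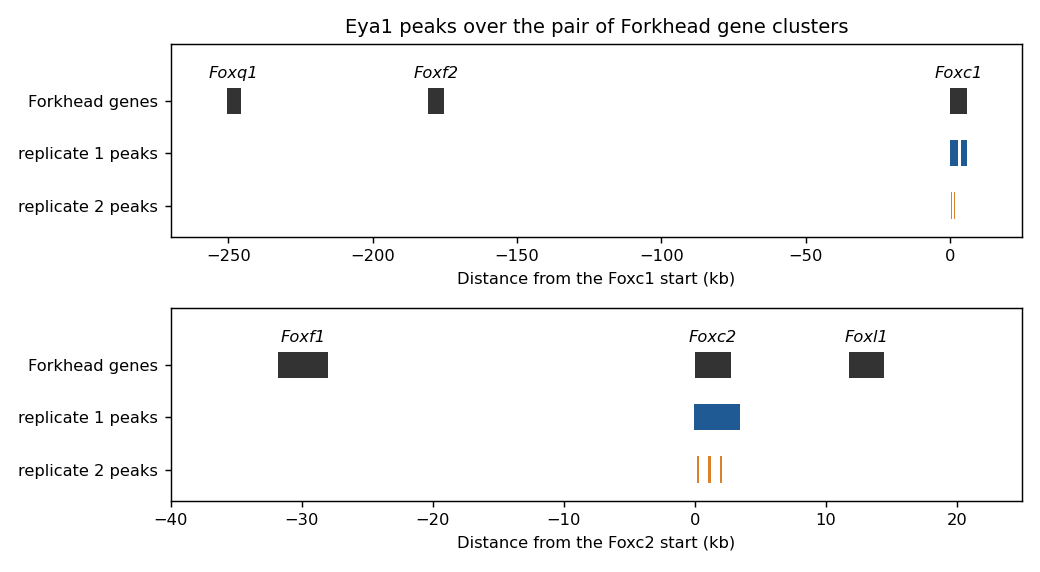
Forkhead genes (black) and Eya1 peaks of replicate 1 (blue) and replicate 2 (orange) around Foxc1 (upper panel) and Foxc2 (lower panel), in kb from the start of the FoxC gene. The peaks of both replicates lie over Foxc1 and Foxc2, and none lies over Foxq1, Foxf2, Foxf1 or Foxl1.

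The SoxC genes, which are also single exons, carried peaks of the same kind. At Sox4 the replicate 1 peak (chr13:28950593-28953779, 3187 bp) covered 65.1% of the gene from its TSS on, and 2 replicate 2 peaks of 126 bp (chr13:28953024-28953149) and 162 bp (chr13:28953217-28953378) lay inside it. At Sox11 the replicate 1 promoter peak (chr12:27341067-27342756) was 1690 bp wide, with a second peak of 1100 bp at chr12:27338847-27339946, and together they covered 31.4% of the gene. Replicate 2 had 199 bp at chr12:27342064-27342262 and 176 bp at chr12:27341170-27341345 in the first of these. At Sox12 the replicate 1 peak (chr2:152395831-152397622, 1792 bp) began 424 bp downstream of the nearest TSS and lay wholly in the exon. Replicate 2 had 3 peaks over Sox12, of 278 bp (chr2:152396801-152397078), 232 bp (chr2:152397246-152397477) and 120 bp (chr2:152397547-152397666). In all 3 SoxC genes the lists placed binding in the transcribed exon and, in replicate 2, at no TSS.

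Foxd1 had the narrowest replicate 1 peak among the members, 650 bp at chr13:98354161-98354810, which covered the TSS and 11.2% of its single exon, and the replicate 2 peak of 161 bp (chr13:98354399-98354559) lay within it. Foxc1, Foxc2, Foxd1, Sox4, Sox11 and Sox12 were thus the 6 single-exon members with a promoter peak, and each had peaks in both replicates. There were 22 single-exon members, so the share in both replicates was 27.3%, against 9.76% (4 of 41) of the members with introns and 3.76% of the 1436 other single-exon protein-coding genes. With a peak of either replicate the order among members turned, at 27.3% of the single-exon members against 31.7% (13 of 41) of those with introns. The 1436 other single-exon genes are poor in CpG, with a median ratio of 0.306 against 0.77 for the single-exon members. The part of CpG in the difference between them and the single-exon members was not tested. Of the 7 single-exon genes on the kidney list, 6 had peaks in both replicates, and the exception was Foxd2. No single-exon member outside the list had a promoter peak. The list was written with results of these data known, so this split is a description.

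At the 4 genes with introns that had peaks in both replicates, the replicate 2 peak lay within the replicate 1 peak. At Foxo1 the replicate 1 peak (chr3:52268244-52270729, 2486 bp) ran from the TSS over the first exon into the first intron, and the replicate 2 peak (chr3:52268744-52268936, 193 bp) lay in the exon. At Foxp1, which has 22 TSS positions over 597384 bp, the replicate 1 peak (chr6:99520747-99523505, 2759 bp) covered the gene 5′ end, and the printed replicate 2 peak lay 367 bp downstream of the nearest TSS. At Foxp4 the replicate 1 peak (chr17:47923082-47925609, 2528 bp) covered the gene 5′ end and held replicate 2 peaks of 138 bp (chr17:47924104-47924241) and 141 bp (chr17:47924531-47924671). At Foxn3, a repressor linked to the DNA damage checkpoint, the peaks were not at the gene 5′ end. They lay at an internal TSS, with midpoints 171030 and 170955 bp into the gene, and were 721 bp wide in replicate 1 (chr12:99392192-99392912) and 122 bp in replicate 2.

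The peaks in a single list were at Foxk1 (751 bp), Foxk2 (888 bp), Foxm1 (761 bp), Foxo3 (2779 bp) and Foxp3 (894 bp) in replicate 1, and at Foxj2 (131 bp), Foxj3 (243 bp), Foxn2 (387 bp) and Sox13 (209 bp) in replicate 2. Some of these promoters are shared. The Foxm1 peak reached the Foxm1 TSS with its last base only, lay otherwise upstream, and was also within 1 kb of a TSS of Rhno1, which is transcribed in the other direction. The Foxp3 peak was also within 1 kb of a TSS of Ppp1r3f. Foxm1 and Foxp3 therefore cannot be told apart from their neighbours as the gene at the peak. Peaks at Foxj2, Foxj3, Foxo1 and Foxp4 were likewise within 1 kb of a TSS of another annotated gene, Gm26826, Frg2f1, Gm20402 and Gm15556 respectively. Foxp3 was the only one of 4 members on the X chromosome with a peak, and Foxo4, Foxr2 and Sox3 had none.

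The members without a promoter peak were mostly far from any peak. Over the 44 genes, the nearest peak of either replicate was between 8.33 kb (Foxl1) and 7785.3 kb (Sox3) from the nearest TSS, with a median of 123 kb. It lay within 50 kb for 8 of them and beyond 100 kb for 25. The same distances for genes outside the families are not given here, so no trait of the members can be read from them. On the kidney list, the distances were 31.69 kb at Foxf1, 53.98 kb at Sox6, 77.69 kb at Foxd2, 78.44 kb at Sox18, 82.76 kb at Sox7, 169.48 kb at Sox8, 239.94 kb at Foxi1, 360 kb at Sox17 and 967.61 kb at Sox9. No member gained or lost its promoter peak when the distance from a TSS was set to 500 bp or 3 kb, so no gene stood close to the limit of 1 kb. Members have few annotated TSSs, with a median of 1 position against 3 over all protein-coding genes. When the gene 5′ end alone was counted, 17 members and 21.5% of all genes had a promoter peak, and Foxj3 and Foxn3 were the members lost.

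**Figure D5:**
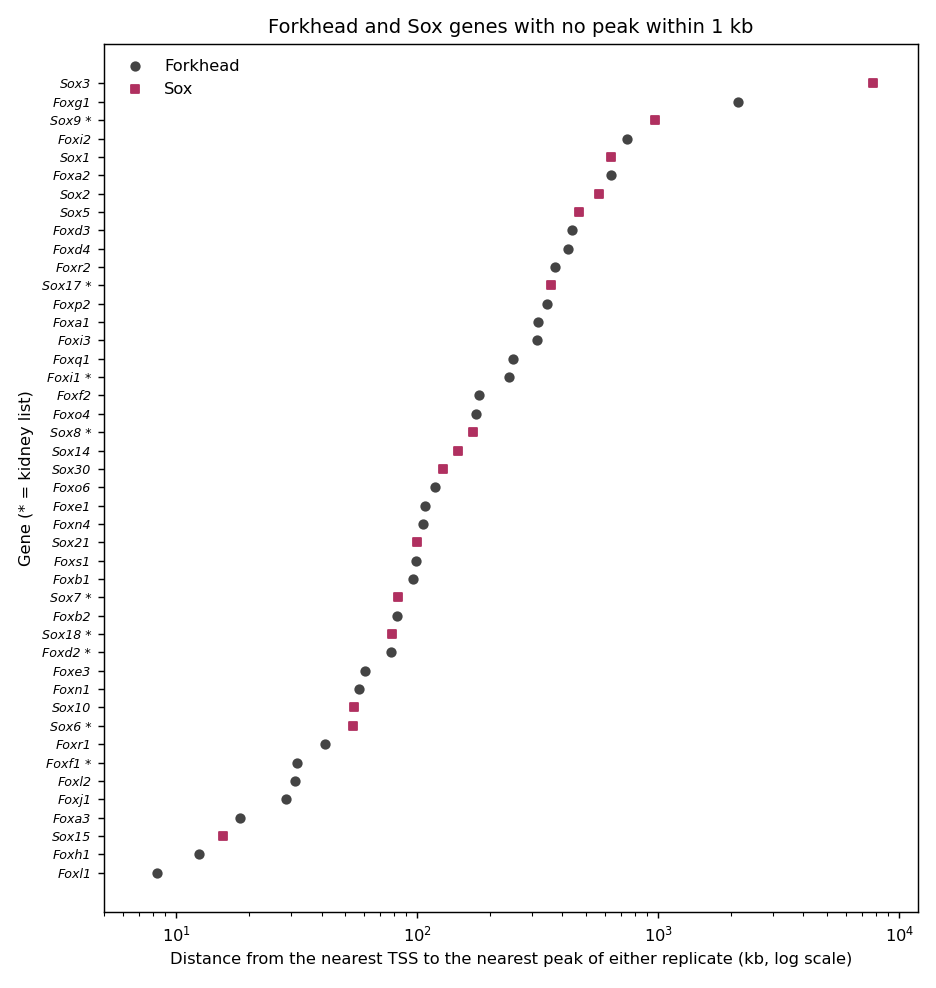
Distance in kb (log scale) from the nearest TSS to the nearest Eya1 peak of either replicate for the 44 members with no peak within 1 kb, with Forkhead genes as dark circles, Sox genes as red squares and genes of the kidney list marked by an asterisk. The distances run from 8.33 kb at Foxl1 to 7785.3 kb at Sox3, with 25 genes beyond 100 kb.

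The RE1 element, the 17-bp site of the repressor REST, occurred near the centre of some Eya1 peaks, and its presence near the members was counted. An RE1 peak is one with the element, at 2 or fewer mismatches, in the central 200 bp. None of the 63 members had an RE1 peak within 50 kb of a TSS, which allows a share of up to 5.69% (upper bound of the exact 95% interval), against 6.05% of all protein-coding genes. The count was also 0 with 1 mismatch allowed, without replicate 1 and without replicate 2, where 3.44%, 5.26% and 2.12% of all genes had such a peak. These 3 shares lay below the bound of 5.69%, so an absence particular to the members was not detectable. Neighbouring genes share such peaks, so the genes are not independent. Within 200 kb, 9 members (14.3%) had one, against 17.8% of all genes. They were Foxa3, Foxb1, Foxh1, Foxj2, Foxm1, Foxn1, Foxs1, Sox14 and Sox8.

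For 2 of these 9, Foxb1 and Sox14, the member was the protein-coding gene with the nearest TSS. The Foxb1 peak (chr9:69856777-69856895, replicate 2) lay 95.8 kb upstream in intergenic sequence, and its element had 2 mismatches and was centred 13 bp from the peak's midpoint. The Sox14 peak (chr9:100023777-100023919, replicate 2) lay 147.6 kb upstream, also outside protein-coding genes, but within 1 kb of a TSS of another annotated gene, 4930519F24Rik. Its element had 1 mismatch and was centred 4 bp from the midpoint. At Foxa3 and Foxs1 the RE1 peak was found in both replicates, but it lay in Nova2, a neuronal splicing factor gene, and in Xkr7, respectively, whose own TSSs are closer. The elements of these 4 are given on their own strand with 6 flanking bases to either side, and the capitals mark the 17 bp of the element (chr9:69856815-69856831 plus, chr9:100023836-100023852 minus, chr7:18951599-18951615 minus and chr2:153032393-153032409 plus).
Foxb1: ggacaaATCAGGACCATGGACAGtaccac
Sox14: atgtgcTTCAGCACAATGGACAGcaccac
Foxa3: agcctcTTCAGCACCAAGGACAGcagccg
Foxs1: cccgccGTCAGCACCAAGGACAGcgacat

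Whole peaks were also searched in place of their central 200 bp. Then 7 members (11.1%) had an RE1 match within 50 kb, against 11.1% of all genes. They were Foxa3, Foxc1, Foxk1, Foxn2, Foxo1, Foxp1 and Sox12. For Foxa3 the match lay in a peak 18312 bp away whose nearest protein-coding TSS was that of Irf2bp1. For Sox12 it lay in a peak 15809 bp away whose nearest was that of Zcchc3. Each of the 7 matches had 2 mismatches and lay from 138 to 1222 bp from the midpoint of its peak.

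Other families of transcription factors with developmental roles were counted in the same way for comparison. Promoter peaks were found at 16 of 39 Hox genes (41%, interval 25.6 to 57.9), 8 of 17 Klf genes (47.1%, interval 23.0 to 72.2) and 0 of 13 Tbx genes, which allows a share of up to 24.7%. The share of all protein-coding genes was 23.5%. Peaks in both replicates were found at 20.5% of Hox, 11.8% of Klf and 0% of Tbx genes. The Forkhead and Sox genes stood at 15.9% and all genes at 11.4%. At Klf genes replicate 1 had 8 and replicate 2 had 3. Of the Hox genes 17 (43.6%) had an RE1 peak within 50 kb, against 0 of the 63 Forkhead and Sox genes. These differences were not tested, and Hox genes of a cluster share their nearby peaks.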

How the data were processed

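The authors aligned reads to mm10 and called peaks with MACS against input or IgG. The methods name Bowtie as aligner and the processing notes list HISAT2. The deposited lists hold peak coordinates in bp and no counts, scores or p-values, so the depth and the cutoff behind a peak are unknown. List starts were taken as 0-based and are printed 1-based. Replicates were grouped from the sample titles, and as only 1 group had lists, no test between conditions was made.

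Peaks were set against GENCODE M21 TSSs (all transcripts of a gene) with Python 3.11.15, pandas 2.3.3, numpy 2.4.6, scipy 1.17.1 and pysam 0.24.0, and figures drawn with matplotlib 3.10.9. Peaks overlapping by at least 1 bp were merged. CpG ratios, motifs and sequences were read from the RefSeq copy of GRCm38. The steps were tested on simulated data. Shares carry exact Clopper-Pearson intervals at 95%. Members, gene lists and measures were chosen with earlier results of these data known. All members with a promoter peak and all of the kidney list are named, with positions for those bound in both replicates; other sites described were chosen after their values were seen. Alternatives covered TSS distance, TSS choice, overlap, CpG classes, RE1 settings and leaving out a replicate. Whether replicates came from separate litters is not given in the sources used here.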

Additional observations from a re-analysis of the deposited data

How the results depend on the processing

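Of 46 alternative values over 7 results, 41 stayed within 1.5 times the reported count or, for the CpG-weighted share, within the spread between replicates. Leaving out a replicate gave 14 to 15 members with a promoter peak, 10 to 12 Forkhead genes, 3 to 4 Sox genes, 9 to 10 genes of the kidney list and no RE1 member, and a weighted share of 23.2 to 31.7% (without replicate 1 and without replicate 2). Requiring the peak midpoint within 1 kb left 5 members (7.94%) with a peak in both replicates, against 11.2% of all genes. A CpG window of 1 kb to either side gave a weighted share of 44.1%, above the members' interval. RE1 peaks within 200 kb gave 9 members (14.3%, against 17.8% of all genes). A search of whole peaks gave 7 (11.1%, against 11.1%). Counting the gene 5′ end only gave 17 members, without Foxj3 and Foxn3. With alternatives added after seeing the data, the weighted share was 35.1% at the gene 5′ end only and 37.9% on autosomes. The lists hold no depth, so a member without a peak may be bound below the cutoff. No paired analysis was possible because only the Eya1 group has peak lists.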

Other observations

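Promoter sequence was searched for 6 motifs on both strands, in 250 bases before to 50 bases after the gene 5′ end in mm10. GGGCGG, the core of the SP and KLF sites, occurred in 39 of 63 member promoters (61.9%) and in 43% of all 21911 promoters. Its share was 63.2% in the 19 members with a promoter peak and 61.4% in the 44 without. CCAAT, the NF-Y core, occurred in 41.3% of members and 39% of all promoters. CCGGAAG, a core of ETS sites, occurred at Foxn2 and Sox21 only (3.17% against 10.8%). The forkhead core GTAAACA was found in the Sox12 promoter and the Sox core AACAATG in the Sox5 promoter (1.59% each, against 3.05% and 3.41% of all promoters). RE1 was found in no member promoter and in 2.96% of all. These matches describe letters in a window and not binding.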
